A study of Homo sapiens with 8 samples.

Results

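The miR-548 family is a large set of primate microRNAs (miRNAs, short RNAs that guide the repression of matching messenger RNAs), and its members were taken as every entry of the deposited miRNA count table with a name, or a joined name, beginning with miR-548. There were 51 such entries among 2026 in all. The RNA came from HCT116, a line of human colorectal cancer cells kept in culture. According to the labels' protocols, cells grown as spheroids were stained with an antibody to CD44v6, dead cells were gated out with propidium iodide, and a flow sorter separated CD44v6-negative from CD44v6-positive cells. CD44v6, made by alternative splicing of the gene for the hyaluronan receptor, is used as a marker of stem-like tumour cells. Both groups therefore shared the line, the spheroid culture and the sort, no genotype or drug was given as differing between them, and a single line is a narrow model of such cells. Each group had 2 columns of counts, called samples 1 and 2. The labels do not say that these came from separate cultures, so every p given here rests on a spread that may be technical.

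MADE1 elements, from which the family arose, are miniature copies of a mariner-type DNA transposon made almost wholly of inverted repeats. When such a copy is transcribed, usually within the intron of a host gene, the repeats pair into a hairpin that the miRNA processing enzymes can cut. Because the copies are many and alike, the resulting miRNAs share short stretches and can differ in their seed, the bases 2 to 8 that select targets, by a shift of a base or by a single change. The family is usually weakly expressed, and reads of its members are hard to assign to a single locus.

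Mature sequences from RefSeq (GRCh38.p14) were matched by name for 39 of the 51 entries. The best-read members with a sequence are shown with the seed in capitals, because their seeds show how the family splits into near neighbours.
miR-548k: aAAAGUACuugcggauuuugcu
miR-548l: aAAAGUAUuugcggguuuuguc
miR-548ab: aAAAGUAAuuguggauuuugcu
miR-548n: cAAAAGUAauuguggauuuugu
miR-548f-5p: uGCAAAAGuaaucacaguuuuu
miR-548e-5p: cAAAAGCAaucgcgguuuuugc
miR-548o-3p: cCAAAACUgcaguuacuuuugc
miR-548f-3p: aAAAACUGuaauuacuuuu
miR-548ay-3p: cAAAACCGcgauuacucuugca
miR-548u: cAAAGACUgcaauuacuuuugcg

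AAAGUAA and its reverse complement UUACUUU, as the arms of an inverted repeat would carry them, recurred among the members. Searched on the miRNA strand, AAAGUAA was in 9 and UUACUUU in 12 of the 39 sequences, so 53.8% of them held one or the other. Of the 1768 other entries with a sequence 0.283% did so, in 5 entries. Members were 18 to 23 bases long and poor in G and C, with a median GC content of 35% (15.8% to 54.5%) against 52.2% over all 1807 entries with a sequence.

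A further set of 2 pairs is printed because one member lies wholly inside the other, with the shared bases in capitals. Among the 39 members with a sequence, none shared it with another, and none of equal length differed at a single base.
miR-548k: AAAAGUACUUGCGGAUUUugcu
miR-548av-5p: AAAAGUACUUGCGGAUUU
miR-548j-5p: AAAAGUAAUUGCGGUCUUUggu
miR-548ap-5p: AAAAGUAAUUGCGGUCUUU

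Apart from the arms of miR-548f, which share a hairpin, the printed members came from separate loci, several of them in introns of protein-coding genes (mature positions from RefSeq, host genes from GENCODE release 29, both GRCh38). An intron of PPFIA1 holds miR-548k (chromosome 11, plus strand, 70283986 to 70284007), and an intron of NETO1 holds miR-548av-5p (chromosome 18, minus strand, 72853365 to 72853382). miR-548o-3p has a copy where no gene is annotated on its strand (chromosome 7, minus strand, 102405748 to 102405769) and another within an intron of RALGAPB (chromosome 20, plus strand, 38516607 to 38516628). miR-548f-3p has 5 copies, in introns of ERBB4, TMEM232, PCDH15 and DMD and at a place on chromosome 7 where the same strand holds no gene, while miR-548f-5p is listed for the PCDH15 copy alone (chromosome 10, minus strand, 54607926 to 54607947). miR-548e-5p lies in an intron of SHOC2 (chromosome 10, plus strand, 110988940 to 110988961).

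Depth set what could be seen of this weakly read family. CD44v6-negative samples 1 and 2 had 7880631 and 4592278 reads over all miRNAs, whereas CD44v6-positive samples 1 and 2 had only 919802 and 154481. In CPM, reads per 1000000 reads of the column, the 3 reads that an observed 0 still allows came to 0.381, 0.653, 3.26 and 19.4 in that order. Such limits and the intervals given here cover counting error only, since amplified reads are not independent molecules. Epithelial and intestinal miRNAs, the check of the labelled cell type, were read in all samples, and summed over 15 entries (miR-215-3p alone at 0) to 22906 and 25981 CPM in the negative and 18290 and 17912 CPM in the positive samples, without overlap. Of their 12 tested entries 5 were lower (34.6% of all tested entries) and 1 higher (24.9%) without overlap, with TMM scaling. The median log2 fold change of the 12 was -0.84 (-0.31 over all tested entries). The summed CPM of blood markers and of the liver miRNA miR-122 was higher in both positive samples. That of stroma and muscle markers stood apart in positive sample 2 alone. Blood markers summed to 2094 and 1712 CPM in the negative and 3865 and 4732 CPM in the positive samples with all 9 entries read, stroma and muscle markers to 911, 1172, 951 and 6519 CPM (miR-1-5p and miR-133a-5p at 0), and the liver miRNA miR-122 to 3.05, 4.79, 48.9 and 757 CPM (miR-122-3p at 0). Of the 5 tested blood entries 2 were higher (24.9% of all tested entries) and 0 lower (34.6%) without overlap, with TMM scaling. The log2 fold change was negative for 1 of the 5, and the liver list had 1 tested entry. The part of these markers in the results on miR-548 was not tested.

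The family as a whole was a small share of the reads and did not separate the groups on its raw scale. Over its 51 entries, CD44v6-negative samples 1 and 2 had 1063 and 2289 reads, and CD44v6-positive samples 1 and 2 had 121 and 36. That was 135 CPM (exact binomial 95% interval 127 to 143) and 498 CPM (478 to 519) in the negative samples, and 132 CPM (109 to 157) and 233 CPM (163 to 323) in the positive samples. Negative sample 1 was level with positive sample 1, negative sample 2 stood above all others, and the groups overlapped.

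The group means were 317 ± 257 CPM in CD44v6-negative and 182 ± 71.8 CPM in CD44v6-positive cells (SD, n = 2), a log2 ratio of -0.80. The negative samples differed from each other by 3.70-fold, more than the means of the groups. The ratio was -1.45 without negative sample 1 and 0.43 without negative sample 2, so its sign rested on the latter. With TMM scaling, which corrects the column totals for composition, the sums were 203 and 415 CPM in the negative and 130 and 187 CPM in the positive samples, and the groups then did not overlap. With RLE scaling they did not overlap either, at 205 and 402 against 141 and 177 CPM. With upper quartile scaling they overlapped again, at 182 and 371 against 152 and 201.5 CPM. No p is given for this sum, because the members were chosen with results known. In such bulk samples fewer cells that make the family and less of it in each cell cannot be told apart.

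**Figure D1:**
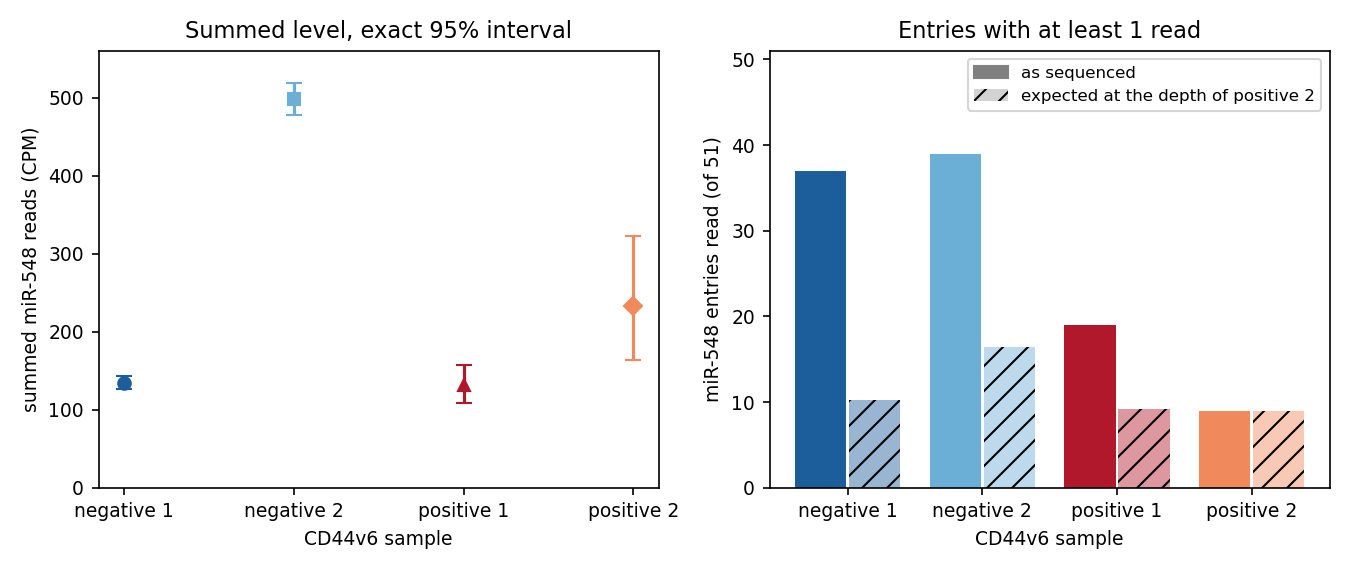
Left, summed miR-548 reads in CPM for each CD44v6 sample with the exact 95% binomial interval; right, number of the 51 miR-548 entries with at least 1 read, as sequenced (solid) and scaled by calculation to the depth of positive sample 2 (hatched). Negative sample 2 stands at 498 CPM above the other samples, and the 37, 39, 19 and 9 entries read fall to 10.2, 16.4, 9.23 and 9 at equal depth.

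Among the 51 entries, 41 were read at least once and 10 never. In CD44v6-negative samples 1 and 2, 37 and 39 entries were read, and in CD44v6-positive samples 1 and 2, 19 and 9. Each of the 21 entries read in a positive sample was also read in a negative sample. As a share, 72.5%, 76.5%, 37.3% and 17.6% of the family was read in these samples, against 62.0%, 66.7%, 42.6% and 30.9% of all 2026 entries. Brought to the depth of positive sample 2 by the exact rarefaction formula, the expected number of entries read was 10.2 and 16.4 in the negative and 9.23 and 9 in the positive samples. The difference in mean entries read was thus -24 as sequenced and -4.20 at equal depth, and negative sample 2 held the most at either depth. Both positive samples were the shallower ones, so depth and group cannot be told apart here.

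The reads were unevenly spread over members. miR-548k, miR-548o-3p and miR-548e-3p, the 3 entries with the most reads, made up 50.3% and 64.9% of the family's reads in the negative samples and 35.5% and 55.6% in the positive samples, where miR-548av-5p equalled miR-548k. The 15 entries described by name held 3119 of 3352 reads in the negative and 146 of 157 in the positive samples. The other 26 entries that were read had totals of 2 to 26 reads, and together 93, 140, 9 and 2 reads in the 4 samples. By the arm in their names, 3p entries summed to 52.7 and 197 CPM in the negative and 22.8 and 84.2 CPM in the positive samples, and 5p entries to 22.97 and 80.6 against 54.4 and 71.2 CPM. Both arms overlapped between the groups. The 19 entries with no arm in the name, miR-548k among them, summed to 59.3 and 221 against 54.4 and 77.7 CPM and also overlapped. A single entry, miR-548av-5p, gave 28 of the 50 and 8 of the 11 reads of the 5p entries in the positive samples, and without it these had 22.6 and 77.5 against 23.9 and 19.4 CPM.

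The test was edgeR's quasi-likelihood test over all entries with enough reads, which kept 570 entries and 13 of the 51 members. Of these 13, 10 reached the filter's 3.63 CPM in both negative samples and 5 in both positive samples, so their counts and median describe the entries kept and not the family. None of the 13 passed a Benjamini-Hochberg adjusted p under 0.05, as did 0% of all 570 (edgeR). At an unadjusted p under 0.05, 3 members lay lower (17.5% of all tested) and 1 higher (13% of all tested) in CD44v6-positive cells. DESeq2 called 1 member, miR-548av-5p, which was higher (3.56% of the 590 entries with an adjusted p were called higher), and limma-voom called none of the members (0.702% of all tested).

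Of the 13 members kept 11 had a negative log2 fold change, where 55.4% of all tested entries had one, and their median was -1.12 (-0.31 over all tested). This describes the filter as well as the members. Of the 13, 7 reached it in both negative but not in both positive samples, and all 7 were negative. A further 2, miR-548av-5p (4.45) and miR-548ay-3p (-0.52), reached it in both positive but not in both negative samples. In CPM the groups did not overlap for 5 members that were lower (27.5% of all tested) and for 1 that was higher (27.9%), and they overlapped for 7. Of the 5 lower members 4 had 0 reads in positive sample 2. With such zeros set to that sample's floor of 19.4 CPM, 1 of the 5, miR-548e-3p, was still without overlap. Its own 2 reads there (12.9 CPM) were under that floor and were not raised, and negative sample 1 had only 13.5 CPM. With TMM scaling 7 members were lower without overlap (34.6% of all tested) and 1 higher (24.9%), the added ones being miR-548i and miR-548k. The median over all tested entries moved from -0.31 with TMM to 0.04 with upper quartile and 0.01 with total count scaling, while each of the 13 members kept its sign under every scaling run.

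**Figure D2:**
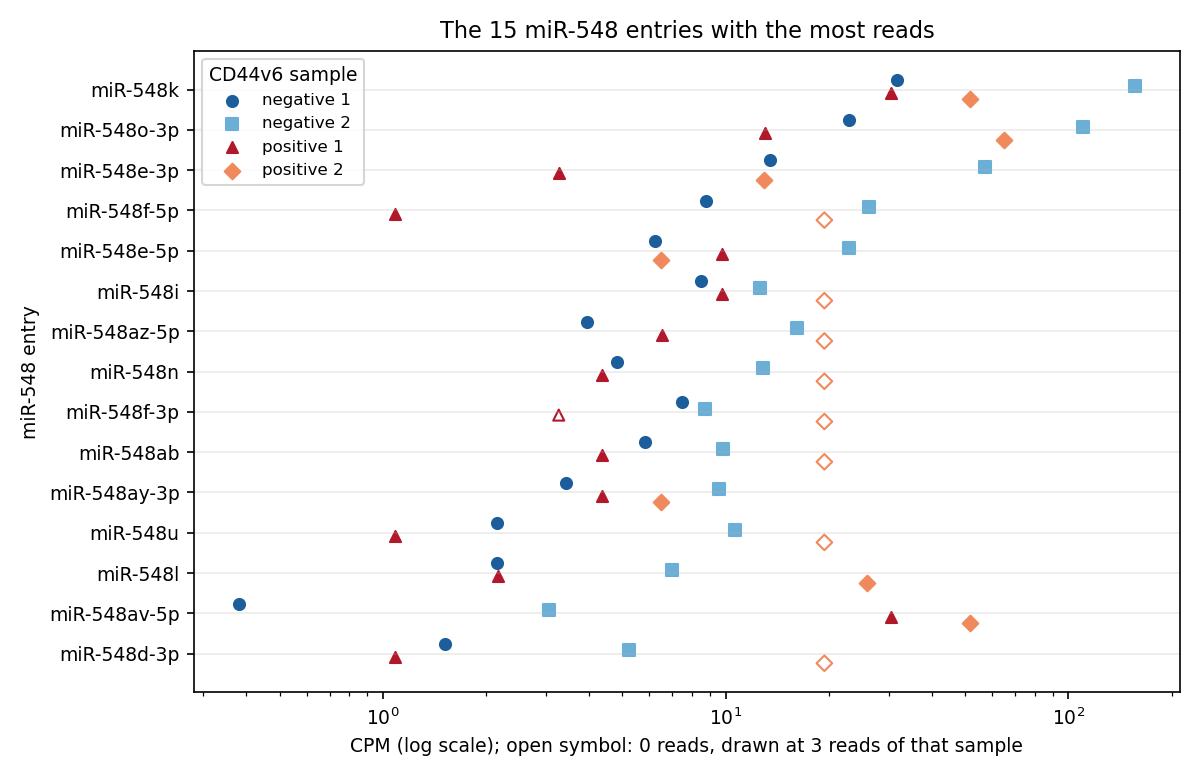
CPM on a log axis of the 15 miR-548 entries with the most reads in each of the 4 CD44v6 samples; an open symbol marks 0 reads and is drawn at the value of 3 reads in that sample. Squares (negative sample 2) lie to the right of circles (negative sample 1) in all 15, miR-548av-5p is the entry with both positive samples far to the right, and the open diamonds at 19.4 CPM show how little positive sample 2 could resolve.

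miR-548k was the most read member. CD44v6-negative samples 1 and 2 had 249 and 718 reads of it (31.6 and 156 CPM), and CD44v6-positive samples 1 and 2 had 28 and 8 (30.4 and 51.8 CPM). The level was alike in negative sample 1 and positive sample 1 and highest in negative sample 2. Its log2 fold change was -1.34 ± 0.72 (SE; edgeR adjusted p = 0.254), and it ran from -1.82 to -0.27 with 1 sample left out.

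miR-548o-3p, a 3p-arm member that carries UUACUUU near its 3′ end, had 180 and 505 reads in the negative samples (22.8 and 110.0 CPM) and 12 and 10 reads in the positive samples (13.0 and 64.7 CPM). In each group sample 2 was the higher, and the groups overlapped. The log2 fold change was -1.12 ± 0.91 (edgeR adjusted p = 0.450), and it was -0.05 without negative sample 2 and -2.01 without positive sample 2.

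The largest shortfalls in CD44v6-positive cells were in miR-548e-3p and both arms of miR-548f. miR-548e-3p had 106 and 262 reads in the negative samples (13.5 and 57.1 CPM) and 3 and 2 reads in the positive samples (3.26 and 12.9 CPM). The groups did not overlap, though negative sample 1 and positive sample 2 were nearly level. Its log2 fold change was -2.68 ± 0.96 (edgeR adjusted p = 0.132, unadjusted p = 0.0295). It was -1.74 without negative sample 2 (adjusted p = 0.583) and -1.83 without positive sample 1, and reached -3.11 without positive sample 2. At the pooled share of the negative samples, 27.1 and 4.56 reads would have been counted in positive samples 1 and 2.

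miR-548f-5p had 69 and 120 reads in the negative samples (8.76 and 26.1 CPM) and 1 and 0 reads in the positive samples. Pooled within groups, the positive level was 0.0614 of the negative one, with an exact counting interval of 0.0015 to 0.346. The edgeR adjusted p was 0.110 (unadjusted p = 0.00794). The partner arm miR-548f-3p had 59 and 40 reads in the negative samples (7.49 and 8.71 CPM) and 0 in both positive samples. Against the floor of 3 reads over both positive samples, 2.79 CPM, it was at least 2.84-fold lower (edgeR adjusted p = 0.117, unadjusted p = 0.0129). That bound came from positive sample 1, where 7.30 reads would have been counted at the negative share, while positive sample 2 would have given 1.23 and could not show a difference. Both arms of miR-548f reached the filter's 3.63 CPM in both negative samples and in neither positive sample. They were tested only through the group where they were high, so their p values are to be read with that limit.

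The other arm of miR-548e, miR-548e-5p, had 49 and 105 reads in the negative samples (6.22 and 22.9 CPM). It had 9 and 1 reads in the positive samples (9.78 and 6.47 CPM), so the groups overlapped. The log2 fold change was -0.78 ± 0.80, and -1.57 to -0.29 without negative sample 1, positive sample 1 or positive sample 2. Without negative sample 2 this arm fell below the filter, so that fit gave no value. Without positive sample 1 the arms stood at -1.57 and -1.83. The difference between the arms was not tested.

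A further 4 members were thinly read, and positive sample 2 had 0 reads of each. miR-548n had 38 and 59 reads in the negative samples and 4 and 0 in the positive samples, and miR-548ab had 46 and 45 against 4 and 0. Their log2 fold changes were -1.47 ± 0.99 and -1.39 ± 0.97. miR-548i had 67 and 58 reads against 9 and 0, and miR-548az-5p had 31 and 74 against 6 and 0, with log2 fold changes of -0.79 ± 0.95 and -1.05 ± 1.03. For these 4 the negative share would have given 1.13 to 1.55 reads in positive sample 2, so a count of 0 there says little, and their edgeR adjusted p lay between 0.360 and 0.608. Of the 13 tested members, 6 had 0 reads and 10 had at most 5 reads in that sample.

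miR-548ay-3p stood close to level, with 27 and 44 reads in the negative samples (3.43 and 9.58 CPM) and 4 and 1 in the positive samples (4.35 and 6.47 CPM). miR-548l, which differs from miR-548k in its seed, had 17 and 32 reads in the negative samples (2.16 and 6.97 CPM) and 2 and 4 in the positive samples (2.17 and 25.9 CPM). Its log2 fold change of 0.85 ± 1.20 came from positive sample 2 and was -0.81 without it. miR-548u with 17, 49, 1 and 0 reads and miR-548d-3p with 12, 24, 1 and 0 reads in the 4 samples fell below edgeR's filter. DESeq2 gave miR-548u -2.69 ± 1.96 on the log2 scale (adjusted p = 0.362) and gave miR-548d-3p no adjusted p.

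One member, miR-548av-5p, lay far higher in both CD44v6-positive samples. CD44v6-negative samples 1 and 2 had 3 and 14 reads of it (0.381 and 3.05 CPM), and CD44v6-positive samples 1 and 2 had 28 and 8 (30.4 and 51.8 CPM). Both positive samples lay above both negative samples. miR-548av-5p reached the filter's 3.63 CPM in both positive samples and in neither negative sample. It was thus tested only through the group where it was high, and its p values are to be read with that limit. The log2 fold change was 4.45 ± 0.93 (edgeR adjusted p = 0.0787, unadjusted p = 0.00266), and pooled counts gave a ratio of 24.6 with an exact counting interval of 13.5 to 46.7. In DESeq2 the log2 fold change was 4.34 ± 1.04 with an adjusted p of 0.00106. With edgeR it passed with total count scaling (adjusted p = 0.0132), as did 48 of all 570 entries. It also passed without negative sample 2 (0.00427), positive sample 1 (0.00265) or positive sample 2 (0.000775), but in these fits the lone sample of a group is assumed to vary like the other group, and 43, 55 and 27 of all entries passed too. It did not pass without negative sample 1 (edgeR adjusted p = 0.0763), with RLE or upper quartile scaling (0.0901 and 0.0925) or in limma-voom (0.0590).

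As printed above, the 18 bases of miR-548av-5p are the first 18 of the 22 bases of miR-548k. In both positive samples these entries had the same count, 28 and 28 reads in sample 1 and 8 and 8 reads in sample 2. In the negative samples miR-548av-5p had 1.20% and 1.95% as many reads as miR-548k. A read no longer than the shared stretch matches both names equally, and the count table does not show which reads were counted, so whether these were the same reads was not tested. The summed reads of the shared seed, AAAGUAC, were 31.98 and 159 CPM in the negative and 60.9 and 104 CPM in the positive samples, and overlapped between the groups. When nested entries were added together before the test, an alternative chosen after seeing the data, miR-548k with miR-548av-5p stood at -0.38 on the log2 scale (edgeR adjusted p = 0.738), and no member passed. If the equal counts are the same reads, both sums count them more than once, and miR-548k alone stood at -1.34.

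**Figure D3:**
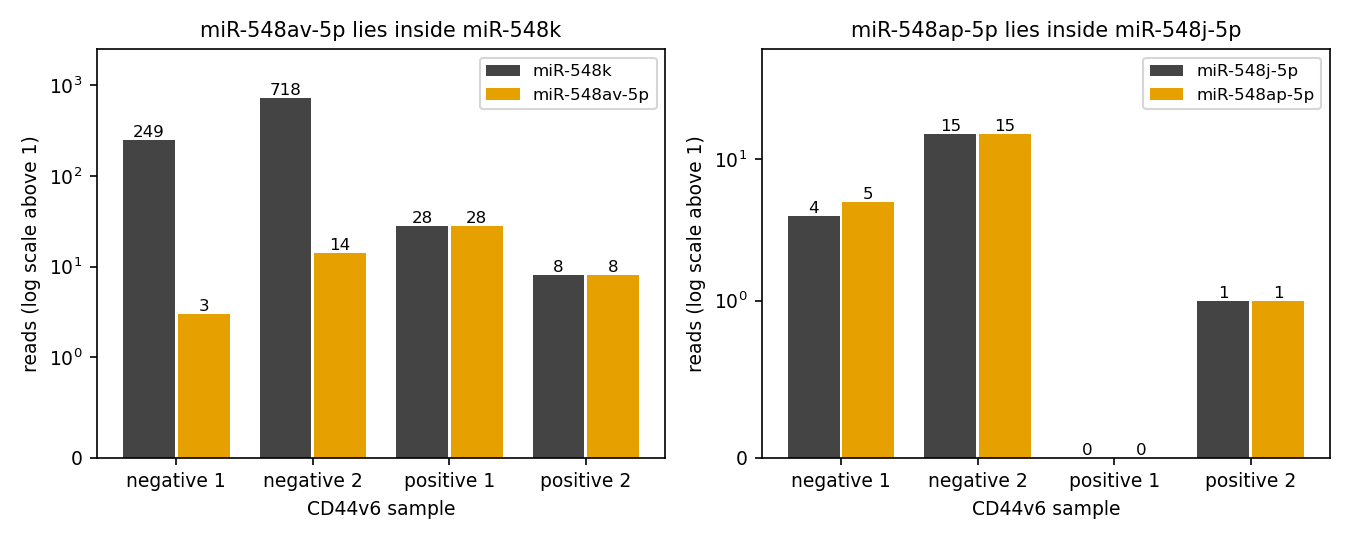
Reads of each pair of nested miR-548 entries in the 4 CD44v6 samples, on an axis that is logarithmic above 1, with the longer entry in dark grey and the shorter in orange. miR-548k and miR-548av-5p have equal counts of 28 and of 8 in the positive samples but 249 against 3 and 718 against 14 in the negative samples.

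The second nested pair had nearly equal counts in every sample. miR-548j-5p had 4 and 15 reads in the negative samples and 0 and 1 in the positive samples, and miR-548ap-5p, the first 19 of its 22 bases, had 5, 15, 0 and 1. Of the entries that share a seed, the largest set was AAAGUAA, carried by miR-548ab, miR-548j-5p, miR-548ap-5p and others, 6 in all. Its reads summed to 64 and 87 in the negative and 5 and 2 in the positive samples (8.12 and 18.9 against 5.44 and 12.9 CPM), and the groups overlapped. The 4 entries with the seed AAAAACU and the 3 with AAGGUAA summed to at most 10 reads in any sample and to 0 in both positive samples. The 2 with AAAACUG, miR-548f-3p and miR-548ar-3p, had 66, 44, 1 and 0 reads.

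Without the shorter entry of both nested pairs the family's log2 ratio of summed CPM was -1.18 (added after seeing the data), against -0.80 with all 51 entries.

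Base composition moved with the comparison across the 499 tested entries that have a sequence (71 have none). In the lowest quartile of GC content (12.5% to 40.9%, 133 entries) the median log2 fold change was -1.47, and in the following quartiles it was -0.40, 0.28 and 0.86. Of the 10 tested members with a sequence, 8 fell in the lowest quartile, in which the 125 other entries had a median of -1.53. The median of -1.12 over all 13 tested members was not below that of these other entries poor in G and C. The 13 are not a like set, however. They include members without a sequence, and miR-548e-5p and miR-548ay-3p, which lie in the second quartile at 45.5% GC. What part base composition had in the members' values was not tested.

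**Figure D4:**
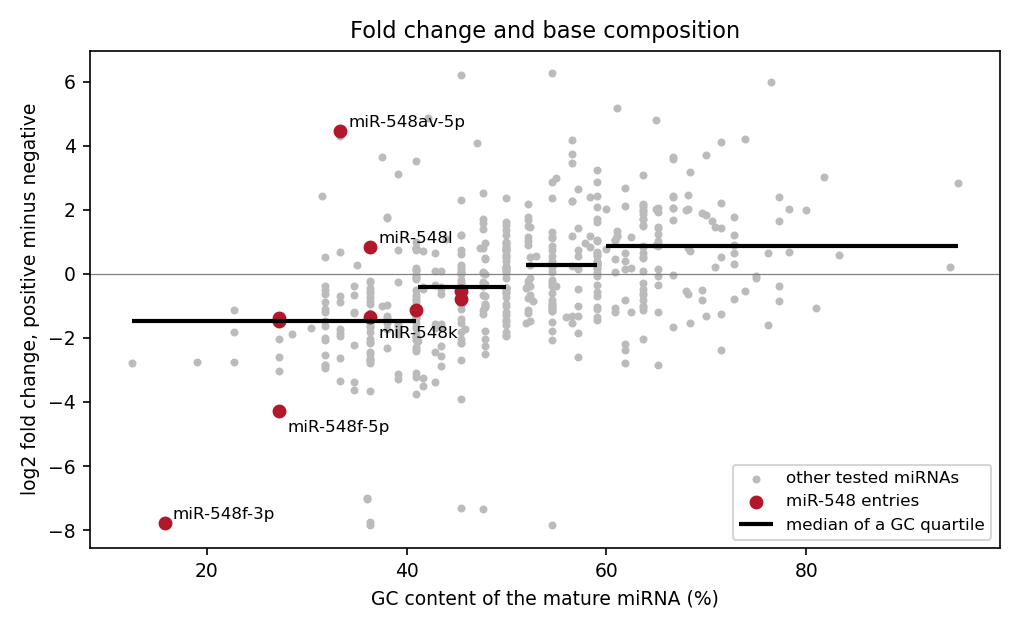
Log2 fold change (CD44v6-positive minus negative, edgeR) against the GC content of the mature miRNA for tested entries with a sequence, with miR-548 entries in red and a black line at the median of each GC quartile. The medians run from -1.47 to 0.86, miR-548k, miR-548n, miR-548ab and miR-548o-3p lie near the line of the lowest quartile, miR-548av-5p and miR-548l lie above it, and miR-548f-5p and miR-548f-3p lie below (the fitted value of the last depends on the prior count, as it had 0 reads in both positive samples).

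Of the other miRNAs of transposon origin, the LINE-2 and other-repeat lists had medians near that of all tested entries. The relatives of MADE1 origin that carry other names, miR-570 and miR-579, had 27 and 40 reads in the negative and 5 and 2 in the positive samples over 4 entries, one of which (miR-570-5p) is joined with miR-548ai. Only miR-579-5p among them was tested, and it gave 0.39 ± 0.89 as log2 fold change (edgeR adjusted p = 0.795). Its GC content of 59.1% lay in the third quartile, where the median of tested entries was 0.28. The 7 tested entries of LINE-2 origin, such as miR-28 and miR-151a, had a median of -0.35 and the 18 of other repeats, such as miR-224 and miR-378a, of -0.33, near the -0.31 of all tested entries. The GC content of the LINE-2 and other-repeat lists was not compared with that of the members. With edgeR none of these lists had an entry that passed, and the difference between the lists was not tested.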

How the data were processed

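Small RNA libraries were made with an Illumina kit and size-selected on a gel, per the labels' protocols. The authors deposited raw read counts per mature miRNA, as whole numbers. The submitters' processing notes name build GRCh38 and, as tools, Bowtie 0.12.9, cutadapt 1.10, DESeq2 and CASAVA 1.8.2. What each did, and how reads matching several miRNAs were counted, was not given in the sources used here, so counts of members with shared bases are uncertain. The labels list 8 sequencing entries; each of the 4 columns combines 2 of them, so n was 2 per group, with 154481 to 7880631 reads per column.

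CPM was taken over the column total. Entries were tested with edgeR 4.0.16 under R 4.3.3 (TMM, filterByExpr with a minimum count of 10 and total of 15, glmQLFit, glmQLFTest), adjusted by Benjamini-Hochberg over all 570 entries tested, and tested on simulated data. Log2 fold changes are positive minus negative. DESeq2 1.42.0, limma 3.58.1, other scalings, filters and samples left out were alternatives. Entries tested or with at least 30 reads in total were named. The members and lists were chosen with earlier results of these data known.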

Additional observations from a re-analysis of the deposited data

How the results depend on the processing

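The number of members past an adjusted p of 0.05 was 0 in edgeR with TMM, RLE and upper quartile scaling, with the 10 CPM filter and with nested entries summed, and 0 in limma-voom. It was 1 in DESeq2 (52 of all 590 entries passed) and with total count scaling (48 of 570), 4 with no filter on low counts (77 of 1510), and 0 to 1 with 1 sample left out (26 to 55 of all entries). With no filter these were miR-548av-5p, miR-548e-3p, miR-548f-3p and miR-548f-5p. With the replicate number as a block (replicate block) 4 members passed and 228 of all 570 entries did, against 0 without it. The labels do not say that the numbers pair the samples. With only 1 correlation of deviations to go by (0.39 for replicate 1 of both groups), whether they are paired cannot be told. The log2 ratio of the summed level ran from -1.45 to 0.43 with 1 sample left out, was -0.57 over numbered pairs and between -0.96 and -0.65 with other scalings. The difference in mean entries read, -24 as sequenced, was -4.20 at equal depth, which by construction removes depth. Of 149 values of single members under alternatives, 1 changed sign, miR-548l (-0.81 without CD44v6-positive sample 2, range to 2.06 with others left out), and 13 newly passed. Not every member had a value under each alternative. Without CD44v6-negative sample 2 only miR-548av-5p, miR-548e-3p, miR-548k, miR-548l and miR-548o-3p stayed in the filter. The other tested members therefore had no value there that could change sign. Depth limited most members: 3 reads were 19.4 CPM in CD44v6-positive sample 2.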

Other observations

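Nesting of mature sequences was looked for over all 1807 entries with a sequence after the counts of miR-548k and miR-548av-5p had been seen, and 8 pairs were found, 6 of them read. Outside the miR-548 family, miR-550a-3-5p, the first 20 of the 23 bases of miR-550a-5p, was read 14 and 8 times in CD44v6-negative cells against 131 and 213 for the longer entry, and 16 and 3 times in CD44v6-positive cells against 14 and 3. miR-3180 and miR-3180-3p had 21, 7, 4 and 0 against 21, 7, 5 and 0 reads in negative samples 1 and 2 and positive samples 1 and 2. miR-500b-5p, which starts at base 2 of miR-500a-5p, had 38, 14, 1 and 0 against 77, 90, 3 and 1 reads.

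The length of the mature sequence also went with the fold change across tested entries, again as a description made after seeing the data. The 21 entries of 17 to 19 bases had a median log2 fold change of 1.20, the 16 of 20 bases of 1.27, the 431 of 21 to 23 bases of -0.39 and the 31 of 24 or 25 bases of -0.05. Among the 21 shortest were 2 members of the family, miR-548av-5p at 4.45 and miR-548f-3p, which had 0 reads in both CD44v6-positive samples.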
